A study of Mus musculus with 12 samples.

Results

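Cells from dissociated mouse embryoid bodies, 4 days after plating, were compared with undifferentiated mouse embryonic stem (ES) cells on 3 of the 12 arrays of a differentiation series. The 3 arrays were chosen by their titles, which name ES cells and day 4 embryoid bodies. On each array, RNA of R1 mouse ES cells was hybridised in one colour and RNA of embryoid body (EB) cells in the other. The ES cells were cultured on gelatin without feeder cells, in KODMEM medium with fetal bovine serum and leukemia inhibitory factor (LIF), the cytokine that keeps mouse ES cells self-renewing. The EB cells were plated on tissue culture dishes in DMEM with fetal bovine serum and no LIF is named for them. The remaining 9 arrays held the same ES cells against EB cells at days 8, 15 and 21, with 3 arrays a day. The labels do not say how long the bodies had been in suspension, whether the ES RNA was a single pool, or whether the 3 arrays came from separate cultures, so the tests below measure the spread between arrays, which may be technical.

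An embryoid body is an aggregate of ES cells that differentiates without instruction once LIF is withdrawn. As background, such cells first leave the naive state marked by genes such as Zfp42, pass through a state like the primed epiblast of the early embryo, and form an outer layer of primitive and visceral endoderm that secretes serum proteins such as alpha-fetoprotein. Mesoderm, heart muscle, blood and neural cells follow later. Bulk RNA cannot separate fewer cells of a type from less RNA per cell.

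Each value below is a log ratio as deposited, read as log2 by convention, so 1 unit is a doubling. Positive values are read as likely higher in EB cells. That reading rests on the labelling protocols, which give Cy5 to the EB RNA and Cy3 to the ES RNA, and on ES genes lying below 0 at day 21 (Zfp42 from -2.55 to -2.51). It opposes the sample titles, written ES/EB, and the dye fields, which give Cy5 to the ES RNA. No dye-swapped array was among those used, so a dye effect would stay in every value. If the reading is wrong, every direction below is exchanged while counts and p-values stay as they are.

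The 3 arrays resembled each other little. Across 9212 genes, the correlation of log ratios was 0.193 between arrays 1 and 2, 0.205 between arrays 1 and 3, and -0.0158 between arrays 2 and 3. Within the later days it lay between 0.334 and 0.833. These are descriptions across genes that share the same features and ES material, not tests. Array 2 had the widest spread (SD 0.314 over all features, against 0.228 and 0.256) and 66 genes above 1, of which 1 was also above 0.5 on another day 4 array. Array 3 stood apart in another way. There, 96 features without a gene symbol, at fixed places of the table, had a median of -1.54, against -0.12 on array 1 and -0.02 on array 2. The same features were at or below -1.04 in median on 4 of the later arrays, namely arrays 2 and 3 of day 8 and array 3 of days 15 and 21. No label names this split of 7 and 5 arrays, and its part in the results was not tested beyond the fits given below.

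**Figure D1:**
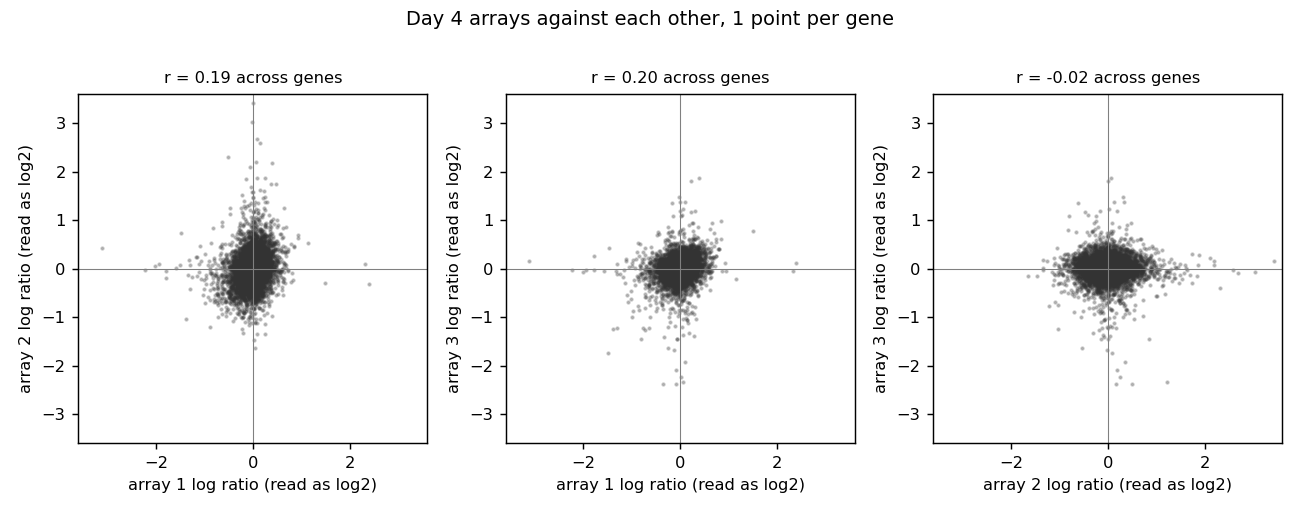
Log ratios (read as log2) of 9212 genes on the 3 day 4 arrays, with each panel plotting one array on the x axis against another on the y axis and 1 point per gene. Array 2 spreads widest, and arrays 2 and 3 show a correlation of -0.0158 across genes.

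No gene passed the test at day 4. With limma fitted to all 12 arrays and Benjamini-Hochberg adjustment, 0 of 10689 features reached an adjusted p under 0.05 (0%), and the smallest adjusted p was 0.0726. At an unadjusted p under 0.05 there were 1081 features (10.1%), where 534 would come from no shift at all, with 532 higher (4.98%) and 549 lower (5.14%) in EB cells. Above 0 on all 3 arrays lay 1582 features (14.8%), and below 0 on all 3 lay 1648 (15.4%). The differences were small. The 95% interval lay inside -1 to 1 for 9120 genes (99%) and inside -0.5 to 0.5 for 7904 (85.8%), with a median half-width of 0.222. Genes with a mean beyond 1 either way numbered 3 at day 4, 50 at day 8, 120 at day 15 and 175 at day 21, and the SD of the gene means was 0.159, 0.227, 0.298 and 0.344.

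The count of calls depended on how the arrays were scaled and weighted. Quantile normalization gave 137 features (1.28%; 88 higher, 49 lower), scaling to a common spread gave 48 (0.449%; 31 higher, 17 lower), and array weights, which gave arrays 1 to 3 the weights 2.08, 0.441 and 0.855, gave 94 (0.879%; 57 higher, 37 lower). A term for the array split, added after the data were seen, gave 87 (0.814%; 22 higher, 65 lower). Of these 87, only 34 were genes (20 higher, 14 lower), and the rest were features with several symbols or none. The split itself was read from features without a symbol. Under all 4 of these settings 23 genes passed, 16 higher and 7 lower. Under exactly 1 of the 4 there were 94 genes. The 23 genes are not used as calls below.

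**Figure D2:**
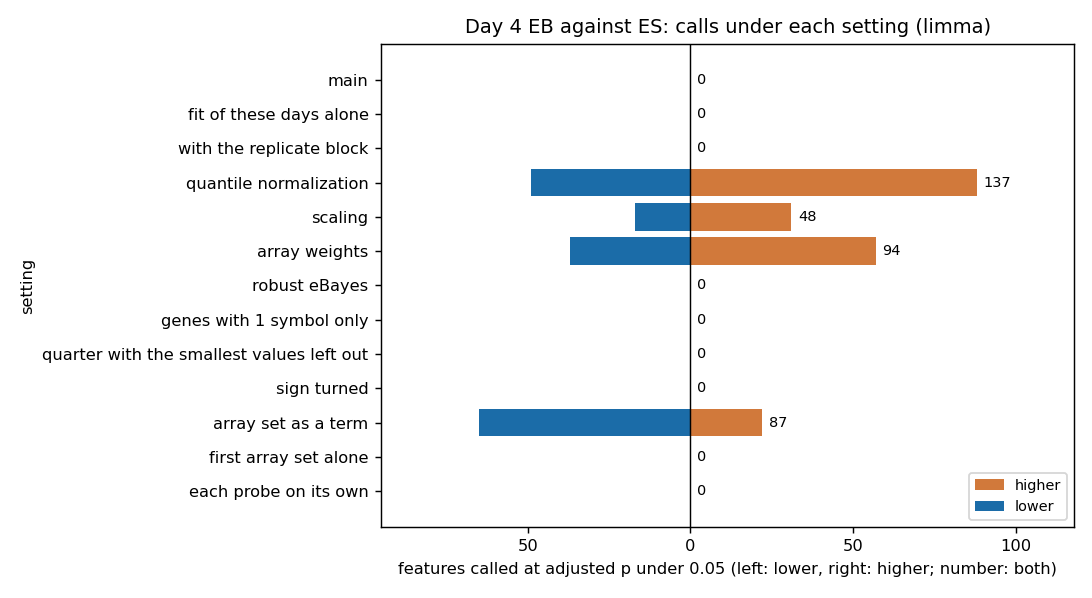
Number of features with an adjusted p under 0.05 (limma) for day 4 EB cells against ES cells under each setting, with bars to the right for higher and to the left for lower and the total printed beside each. The main setting gives 0, and quantile normalization gives 137.

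Among genes higher in EB cells on all 3 arrays, the 12 with the smallest p had means between 0.37 and 0.64, and none passed the test. Rbm3, a cold-inducible RNA-binding protein, was at 0.73, 0.36 and 0.61 on arrays 1, 2 and 3, with a mean of 0.57 ± 0.19 (SD, n = 3; limma adjusted p = 0.0726), a ratio of 1.48. Lztr1, a substrate adaptor of a cullin ubiquitin ligase, was at 0.63, 0.84 and 0.43 (mean 0.63 ± 0.20, SD, n = 3; limma adjusted p = 0.0726). Both genes were above 0 on all 3 arrays, as the choice of genes required.

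Tyms, thymidylate synthase, which makes a building block of DNA, was at 0.84, 0.46 and 0.61, and its adjusted p (limma) was 0.101. Dnaja1, a co-chaperone of the cytosol, was at 0.41, 0.50 and 0.37. Gsta4, a glutathione transferase that clears products of lipid peroxidation, was at 0.47, 0.40 and 0.40. The spread of Gsta4 between arrays (SD 0.038) was small beside its mean of 0.42, and its adjusted p (limma), which uses the spread within all 4 days, was 0.102.

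Nedd8, the ubiquitin-like protein that is attached to cullins, was at 0.37, 0.48 and 0.35. Ddx39b, an RNA helicase of splicing and mRNA export, was at 0.53, 0.37 and 0.41, and Eny2, a subunit of complexes for histone modification and mRNA export, at 0.29, 0.45 and 0.36. Snrpg, a core protein of the spliceosome's small ribonucleoproteins, was at 0.33, 0.61 and 0.28. The remaining genes of this group were Znrd2 (0.73, 0.41 and 0.54), Ssbp1 (0.61, 0.66 and 0.23), which binds single-stranded mitochondrial DNA, and Rexo2 (0.42, 0.93 and 0.44), a ribonuclease. All 12 were among the 23 genes that passed under all 4 settings. Those settings refit the same arrays from which the 12 were chosen by p, so the overlap is no separate support. Quantile normalization and scaling enlarged the estimate of each of the 12, for Tyms from 0.64 to 1.17 and 0.79.

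At the later days these genes differed in course. Lztr1 stayed above 0 on all arrays of days 8, 15 and 21, with means of 0.41, 0.45 and 0.56. Gsta4 had later means of -0.12, -0.54 and -0.96, with every later array below 0. Tyms had later means of -0.01, 0.02 and -0.21. The difference between days 8 and 4 was -0.65 for Tyms (95% interval -0.98 to -0.32; limma adjusted p = 0.28) and -0.54 for Gsta4 (95% interval -0.78 to -0.30; limma adjusted p = 0.23). Neither passed the test.

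Among genes lower in EB cells on all 3 arrays, the 12 with the smallest p had means between -0.95 and -0.35, and none passed either. Aass, an enzyme of lysine breakdown, was at -0.88, -1.21 and -0.76, with a mean of -0.95 ± 0.23 (SD, n = 3; limma adjusted p = 0.101), a ratio of 0.517. It stayed below 0 on all 9 later arrays, between -1.60 and -0.66. Slco1a1, a transporter of organic anions, was at -0.40, -0.82 and -0.50, and Slc30a9, of a zinc transporter family, at -0.47, -0.41 and -0.43. Kif2a, a kinesin that takes microtubules apart, was at -0.31, -0.38 and -0.35.

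Csnk2a2, a catalytic subunit of casein kinase II, was at -0.55, -0.89 and -0.26. Prelid2 was at -0.72, -0.53 and -0.39, and Chrna6, a nicotinic acetylcholine receptor subunit, at -0.66, -0.82 and -0.22. These 7 genes, Aass included, were the ones lower under all 4 settings, which refit the same arrays and give no separate support. Prps1, which makes the sugar phosphate from which nucleotides are built, was at -0.60, -0.61 and -0.24, and its later means were -0.60, -1.39 and -1.31. Cul4b, a scaffold of ubiquitin ligases, was at -0.88, -0.64 and -0.22, Aars, which charges alanine tRNA, at -0.52, -0.84 and -0.20, and Ggt5, a gamma-glutamyl transferase, at -0.23, -0.54 and -1.004.

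Tagln, an actin-binding protein of smooth muscle and fibroblasts, was at -0.74, -0.39 and -0.81. It turned later, with means of -0.86 at day 8, 0.26 at day 15 and 0.73 at day 21. The lowest mean of a gene belonged to Klk1, a serine protease of the kallikrein family, at -1.39, -1.03 and -1.25 (mean -1.22 ± 0.18, SD, n = 3; limma adjusted p = 0.165), a ratio of 0.428. Klk1 stayed below 0 on every later array.

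**Figure D3:**
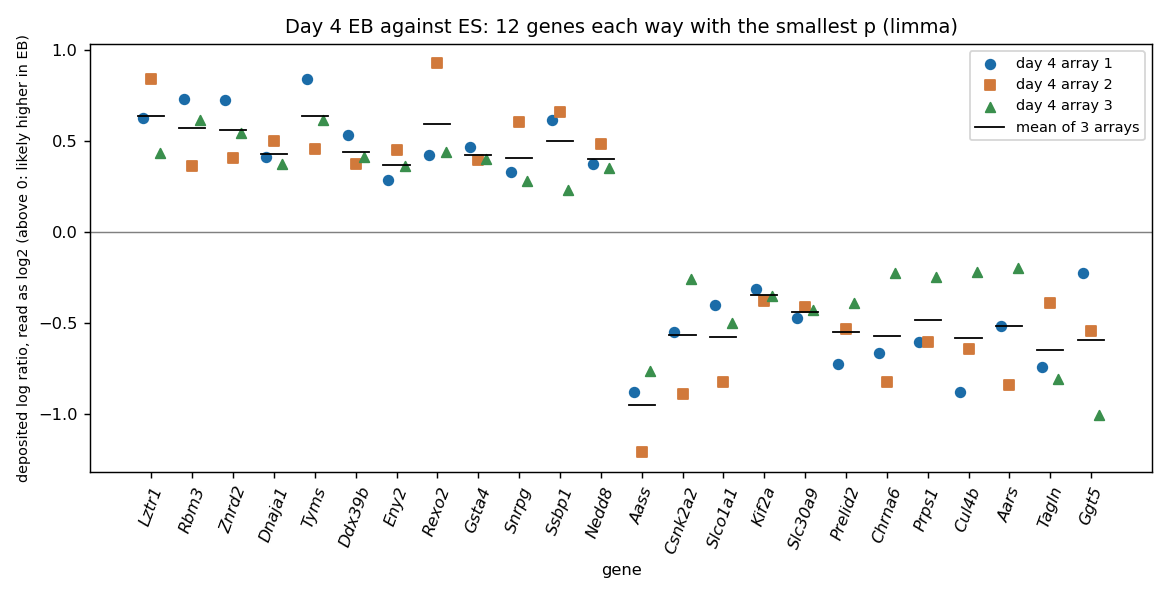
Log ratios (read as log2; above 0 likely higher in EB cells) of the 12 genes each way with the smallest limma p, as points for the 3 day 4 arrays with a line at their mean. Only genes with the same sign on all 3 arrays could be chosen, and the means run from 0.64 for Tyms to -0.95 for Aass.

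In 4 of the 6 largest means among genes positive on all arrays, array 2 held by far the highest value. Cul5, a cullin, was at 0.40, 2.18 and 0.16. Psmc3, an ATPase of the proteasome, was at 0.24, 1.87 and 0.28, and Bcl7b, a subunit of a chromatin remodelling complex, at 0.37, 1.74 and 0.30. Lgr5, the R-spondin receptor, was at 0.06, 2.19 and 0.07. The 6 genes with the widest ranges over the 3 arrays were chosen by that range, so an extreme array in them is no separate result. Adamdec1 reached 3.43 on array 2 with -0.00 and 0.16 on the others, Cyp7b1 reached 3.03 with -0.01 and -0.06, and Prl2c2 reached 2.31 with -0.52 and -0.39. Abcb1a was at -3.12, 0.42 and 0.17 on arrays 1 to 3, Ereg at -0.35, 0.49 and -2.37, and Dmp1 at 0.06, 1.23 and -2.34. Myo5a, among the lowest means, was at -2.23, -0.02 and -0.02. Lower genes spread over arrays were Ttc13 (-0.26, -0.53 and -1.63), Tnfsf10 (-0.38, -1.03 and -0.74), a ligand that triggers cell death, and Tm4sf1 (-0.72, -0.18 and -1.27).

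Of 21 measured naive genes, 9 lay below 0 on all 3 arrays and 3 above, beside 15.4% and 14.8% of all features, and 3 had an unadjusted p under 0.05, all lower. The list's median was -0.17, -0.08 and -0.12 on arrays 1 to 3, against medians of all features of 0.0011, -0.0020 and -0.0024. Zfp42, the zinc finger factor also called Rex1, was at -0.27, -0.58 and -0.41 (limma adjusted p = 0.295). Alpl, the alkaline phosphatase used to stain ES colonies, was at -0.56, -0.97 and -0.30 (limma adjusted p = 0.201), and it passed with the array split as a term, under quantile normalization and under scaling. Tdgf1, a Nodal co-receptor, was at -0.74, -0.50 and -0.19. Dppa3, also called Stella, was at -0.65, -0.40 and -0.31, and Tcl1, a co-activator of the kinase Akt, at -0.25, -0.49 and -0.55. Fbxo15 was at -0.25, -0.21 and -0.45, and Dppa5a at -0.29, -0.25 and -0.05, whereas Esrrb was at -0.17, 0.12 and -0.17. Of the genes named here, all but Esrrb lay below 0 on every day 4 array, but none passed the test. The list was not uniform. Of its 21 genes, 7, 8 and 5 were above 0 on arrays 1 to 3, and the highest mean was 0.30.

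The core factors had means nearer 0, with Sox2 below 0 on all 3 arrays and the others on both sides. Pou5f1, which encodes Oct4, was at 0.20, -0.07 and 0.11 (mean 0.08, 95% interval -0.23 to 0.39). Nanog was at -0.14, 0.37 and 0.04 (95% interval -0.30 to 0.48), and Sox2 at -0.01, -0.26 and -0.07 (95% interval -0.38 to 0.15). The intervals leave room for changes of that size, so they do not show that levels were equal. Of 13 measured core genes, 3 were below 0 and 1 above 0 on all arrays, beside 15.4% and 14.8% of all features. Phc1, a Polycomb protein, was lowest of these genes with -0.54, -0.85 and -0.15 (limma adjusted p = 0.165). From day 4 to day 8 the difference was -0.86 for Zfp42 (95% interval -1.27 to -0.46) and -0.84 for Nanog (95% interval -1.39 to -0.30), with limma adjusted p of 0.23 and 0.43, so neither passed.

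Genes that LIF and its factor Stat3 drive showed no common direction. Of 21 measured, 2 were higher and 3 lower at an unadjusted p under 0.05, beside 4.98% and 5.14% of all features. Together this is 23.8% of the list beside 10.1% of all features. The list's median was -0.08, -0.03 and -0.02. Socs2, an inhibitor of cytokine signalling, was at 0.50, 1.00 and 0.40 (limma adjusted p = 0.102). Myc, the growth-promoting factor, was at 0.78, 0.50 and 0.40 (limma adjusted p = 0.18). Pim3, a kinase, was at -0.61, -0.53 and -0.19, Ier3 at -0.57, -0.43 and -0.20, and Klf4, a factor of the naive state, at -0.57, -0.15 and -0.25. Socs2 and Myc were high at day 4 beside day 8, where their means were -0.02 and -0.28, with differences of -0.65 and -0.84 and adjusted p (limma) of 0.40 and 0.23.

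Of 25 measured genes of the formative and primed epiblast, 9 were above 0 and 4 below 0 on all arrays (14.8% and 15.4% of all features). At an unadjusted p under 0.05, 3 were higher and 0 lower, beside 4.98% and 5.14% of all features. The medians were 0.07, 0.02 and 0.05, and on array 3 14 of the 25 were above 0. Fgf5, the standard marker of the primed epiblast, was at 0.19, 0.34 and 0.15 (mean 0.22 ± 0.10, SD, n = 3; limma adjusted p = 0.387). Its means at days 8, 15 and 21 were much the same, at 0.29, 0.21 and 0.24. Dnmt3b, a de novo DNA methyltransferase, was at 0.83 and 0.98 on arrays 1 and 3 and at -0.24 on array 2, and Otx2 was likewise low on array 2 (0.12, -0.45 and 0.41). Fst, an inhibitor of activin, was at 0.64, 1.24 and -0.17. Fgf8, a growth factor of the epiblast and primitive streak, was at 0.69, 0.27 and 0.47, and Dnmt3l, a partner of the de novo methyltransferases, at -0.39, -0.74 and -0.04. Array 2 went against the other arrays for Dnmt3b and Otx2, and array 3 for Fst.

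Of 37 measured genes of the primitive streak and early mesoderm, 1 was higher and 0 lower at an unadjusted p under 0.05. The shares of all features were 4.98% and 5.14%. The higher gene was Cyp26a1, which breaks down retinoic acid, at 0.09, 0.34 and 1.37. Bmp4, a signal that induces mesoderm, was at -0.30, -0.22 and -0.26, and Bmp2 at 0.03, 0.44 and 0.22. Among 5 marker genes of the streak, 4 were measured, with values between -0.18 and 0.21. The fifth, Brachyury, was not analysed here.

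The secreted proteins of the endoderm were high on array 3 and near 0 on the others. Ttr, which carries thyroid hormone and retinol, was at 0.38, 0.06 and 1.86, and Spink1, a protease inhibitor of the yolk sac, at 0.21, 0.00 and 1.80. Apoa1 and Apoc2, apolipoproteins that the visceral endoderm secretes, were at -0.03, 0.30 and 1.48 and at -0.01, 0.12 and 1.38. Afp, alpha-fetoprotein, was at 0.22, -0.48 and 1.17. Array 3 alone held the high values, and the 95% interval of the mean ran from -0.64 to 1.25 for Afp and from -0.56 to 2.09 for Ttr. Without array 3, Afp had a mean of -0.13. At day 8 array 1 was the lowest for each of the 5 genes (Ttr -1.33, Afp 0.01, Apoc2 0.20, Apoa1 0.40 and Spink1 1.09), and arrays 2 and 3 lay between 1.53 and 3.85, and at days 15 and 21 every array was at 1.89 or above for these 5 genes. Array 3 of day 4 and arrays 2 and 3 of day 8 were those on which the 96 features without a gene were low. Spink1 was the exception in being above 1 on array 1 of day 8 too. On days 15 and 21 array 3 was such an array too. There Afp was at 3.62 and 3.35 beside 3.35 and 3.46, and 4.10 and 3.34, on the others. On day 15 array 3 was the highest for Ttr, Apoa1 and Afp and the lowest for Spink1 and Apoc2. On day 21 it was the lowest for Ttr (2.80 beside 3.80 and 3.17), Apoa1 (2.20 beside 2.96 and 2.48) and Apoc2 (1.89 beside 3.01 and 2.49). It was in the middle there for Afp and Spink1. The part of the array split in these values was not tested.

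The transcription factors that set up this lineage were nearer 0, with Gata6 at -0.18, 0.22 and 0.10 and Sox17 at -0.04, -0.05 and 0.22. Of 48 measured endoderm genes, 2 were higher and 1 lower at an unadjusted p under 0.05, beside 4.98% and 5.14% of all features. The list's median was -0.03, 0.04 and 0.09. Its median over the means of days 8, 15 and 21 was 0.53, 0.51 and 0.71. In the difference between days 8 and 4, where 0 of 10689 features passed (0%; 746 at an unadjusted p under 0.05, smallest limma adjusted p = 0.193), 26 of the 48 were higher at day 8 at an unadjusted p under 0.05, beside 3.44% of all features, and 0 were lower, beside 3.54%. That count was 15 without array 1 of day 4 (2.6% of all features), 16 without array 2 of day 8 (3.09%) and 22 with the array split as a term (3.93%). In each of these fits 0 of the 48 were lower. The first array set alone holds only array 1 of day 8, so no count is given for it.

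Ttr and Spink1 were high on array 3 too, but the sequence source used here had no promoter entry for them. The promoters of Afp, Apoa1 and Apoc2 are shown because these genes were high together on array 3. Each is the 150 bases before the RefSeq start on GRCm38.p6, written 5′ to 3′ on the gene's strand: Afp at chr5:90490564-90490713 on the plus strand, Apoa1 at chr9:46228480-46228629 on the plus strand and Apoc2 at chr7:19677942-19678091 on the minus strand. Capitals mark the letters GTTAAT and GTTAAC, found on either strand, which belong to the type of site that the liver and yolk sac factor HNF1 binds and were chosen after the sequences were seen.
Afp: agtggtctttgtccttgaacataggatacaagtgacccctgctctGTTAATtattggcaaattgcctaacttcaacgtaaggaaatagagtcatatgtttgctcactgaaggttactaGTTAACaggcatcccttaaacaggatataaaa
Apoa1: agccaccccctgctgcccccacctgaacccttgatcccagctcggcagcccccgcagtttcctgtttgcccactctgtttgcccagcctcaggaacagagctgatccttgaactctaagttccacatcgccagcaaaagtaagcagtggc
Apoc2: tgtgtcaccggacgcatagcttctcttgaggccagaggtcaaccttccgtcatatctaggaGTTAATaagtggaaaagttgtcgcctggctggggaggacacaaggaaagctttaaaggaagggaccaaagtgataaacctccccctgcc
The Afp window held 2 matches, Apoc2 held 1 and Apoa1 held 0. Of 32851 windows of this length, 1668 (5.08%) held either set of letters. A match is a description of the letters and does not show a bound site.

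**Figure D4:**
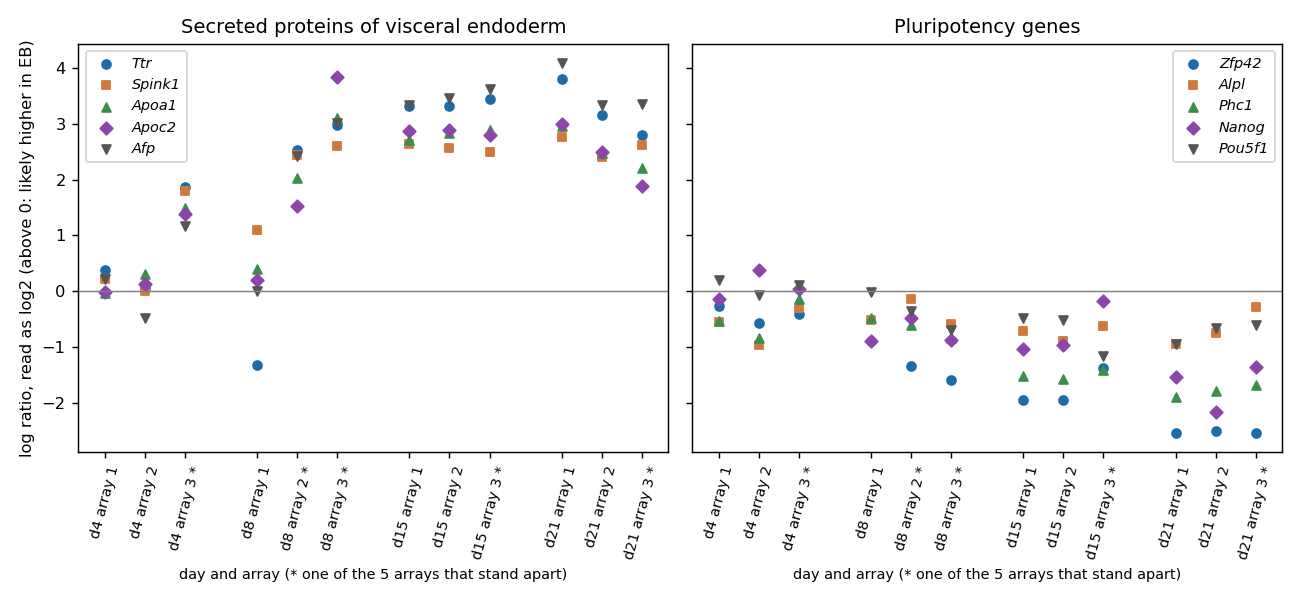
Log ratios (read as log2; above 0 likely higher in EB cells) of 5 secreted endoderm proteins (left) and 5 pluripotency genes (right), 1 point per gene on each of the 12 arrays, with an asterisk on the 5 arrays where the features without a gene were low. At day 4 the endoderm genes are high on array 3 alone, with Ttr at 1.86, and Pou5f1 and Nanog lie near 0.

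Genes of fibroblasts and interstitial matrix were mostly below 0 on arrays 1 and 3, while on array 2 22 of 43 were above 0. Below 0 on all arrays lay 15 and above 0 lay 2 (15.4% and 14.8% of all features), and 6 were lower and 0 higher at an unadjusted p under 0.05 (5.14% and 4.98% of all features). The list's medians were -0.16, 0.01 and -0.20. Thy1, a surface glycoprotein of fibroblasts, was at -0.73, -0.34 and -0.57. S100a6, a calcium-binding protein, was at -1.50 and -1.73 on arrays 1 and 3 and at 0.09 on array 2, and Ccl2, a chemokine, at -0.65, -0.12 and -1.23. The matrix genes themselves were nearer 0, with Col1a1 at -0.07, -0.08 and -0.12, Col3a1 at -0.04, -0.15 and -0.20, Postn at -0.07, 0.02 and -0.02 and Col1a2 at -0.18, 0.25 and -0.62. At days 15 and 21 these 4 genes were between 0.77 and 2.99 on every array.

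At an unadjusted p under 0.05, the lists of heart and muscle, blood and endothelium and neuroectoderm held no larger share than the 10.1% of all features. Among 30 measured genes of heart and muscle, 1 was higher and 2 lower, Tagln among them. The higher gene, Myh7, a myosin heavy chain, was at 0.48, 0.58 and 0.10. Myl7, an atrial myosin light chain, was at -0.06, 0.23 and -0.32, and Actc1, cardiac actin, at 0.29, 0.26 and 0.11. For blood and endothelium, 0 of 29 genes were higher and 1 lower, and Hba-x, an embryonic globin, was at -0.07, 0.17 and 0.09. Erg and Cdh5, genes of the endothelium, had means of -0.22 and -0.20. For neuroectoderm, 1 of 39 was higher and 1 lower. The lower gene was Vim, the intermediate filament vimentin, found also in mesenchymal cells, at -1.01, -0.42 and -0.63 (limma adjusted p = 0.227). The higher gene was Hes3, a repressor in neural progenitors, at 0.26, 0.94 and 0.17. Pax6 was at -0.06, 1.20 and -0.08, high on array 2 alone. Krt18, a simple epithelial keratin counted here with the trophoblast markers, was at 0.43, -0.29 and 0.03, and at day 8 it was between 1.00 and 1.53.

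Genes of glycolysis and the response to low oxygen had medians of -0.18 and -0.26 on arrays 1 and 2 and 0.05 on array 3. Of 35 measured, 6 were lower and 0 higher at an unadjusted p under 0.05, beside 5.14% and 4.98% of all features. On all arrays 9 were below 0 and 2 above, and together this is 31.4% of the list beside 30.2% of all features. Pfkp, a phosphofructokinase, was at -0.38, -0.47 and -0.38. Ldhb, lactate dehydrogenase, was at -0.41, -0.63 and -0.23. Pdk1, a pyruvate dehydrogenase kinase, was at -0.49, -0.69 and -0.06, and Pgk1, phosphoglycerate kinase, at -0.45, -0.72 and -0.00. Array 3 was the highest for each of the last 3.

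Genes of the mitochondrial respiratory chain lay mostly above 0. Of 38 measured, 14 were above 0 and 0 below 0 on all arrays (14.8% and 15.4% of all features), and 9 were higher and 0 lower at an unadjusted p under 0.05 (4.98% and 5.14% of all features). The medians were 0.09, 0.02 and 0.13. Cox5b, a subunit of cytochrome oxidase, was at 0.65, 0.34 and 0.23 (limma adjusted p = 0.206). Atp5l, a subunit of ATP synthase, was at 0.21, 0.55 and 0.29 (limma adjusted p = 0.206), and Atp5g2, another, at 0.22, 1.26 and 0.14, high on array 2. Cox4i1 was low on array 2 (0.03, -1.11 and -0.12). The list's median was 0.074 over the day 4 means, 0.035 without array 3, and -0.05, -0.09 and -0.22 at days 8, 15 and 21.

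Cytosolic chaperones and genes against oxidative stress had the highest median of the 22 lists at 0.137, with 0.19 and 0.17 on arrays 1 and 3 and -0.02 on array 2, and it was 0.084 without array 3. Of 29 measured, 11 were above 0 and 2 below 0 on all arrays (14.8% and 15.4% of all features), and 5 were higher and 1 lower at an unadjusted p under 0.05 (4.98% and 5.14% of all features). Beside Dnaja1 and Gsta4, Gclm, which limits glutathione synthesis, was at 0.39, 0.16 and 0.49. Mt2, a metal-binding metallothionein, was at 0.62 and 0.83 on arrays 1 and 3 and at -0.27 on array 2. The list's median was 0.00, -0.14 and -0.27 at days 8, 15 and 21.

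For genes of the cell cycle, the nucleolus and the ribosome, array 2 opposed the others. At an unadjusted p under 0.05, 4.98% of all features were higher and 5.14% lower. The cell cycle list (52 measured, with 5 higher and 1 lower at that p) had medians of 0.04, -0.12 and 0.10. The nucleolar list (20 measured; 2 higher, 0 lower) had 0.10, -0.19 and 0.07, and the list of cytosolic ribosomal proteins (49 measured; 1 higher, 0 lower) had 0.16, -0.10 and 0.03. Their medians over the day 4 means lay between -0.012 and 0.010 and had no settled sign, since without array 2 they were 0.069, 0.079 and 0.054 and without array 1 -0.038, -0.047 and -0.046. Nop56, which guides modification of ribosomal RNA, was at 0.33, 0.33 and 0.29, and Ppan at 0.26, 0.37 and 0.17. Rpl34 was at 0.44, 0.55 and 0.05, and Rpl12 at 0.12, -0.50 and -0.29. Top2a, a topoisomerase of dividing cells, was at -0.38, -0.47 and -0.07, Cdc20 at -0.14, -0.79 and 0.12, and Ccnd2, a D-type cyclin, at 0.25, 0.45 and 0.32.

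**Figure D5:**
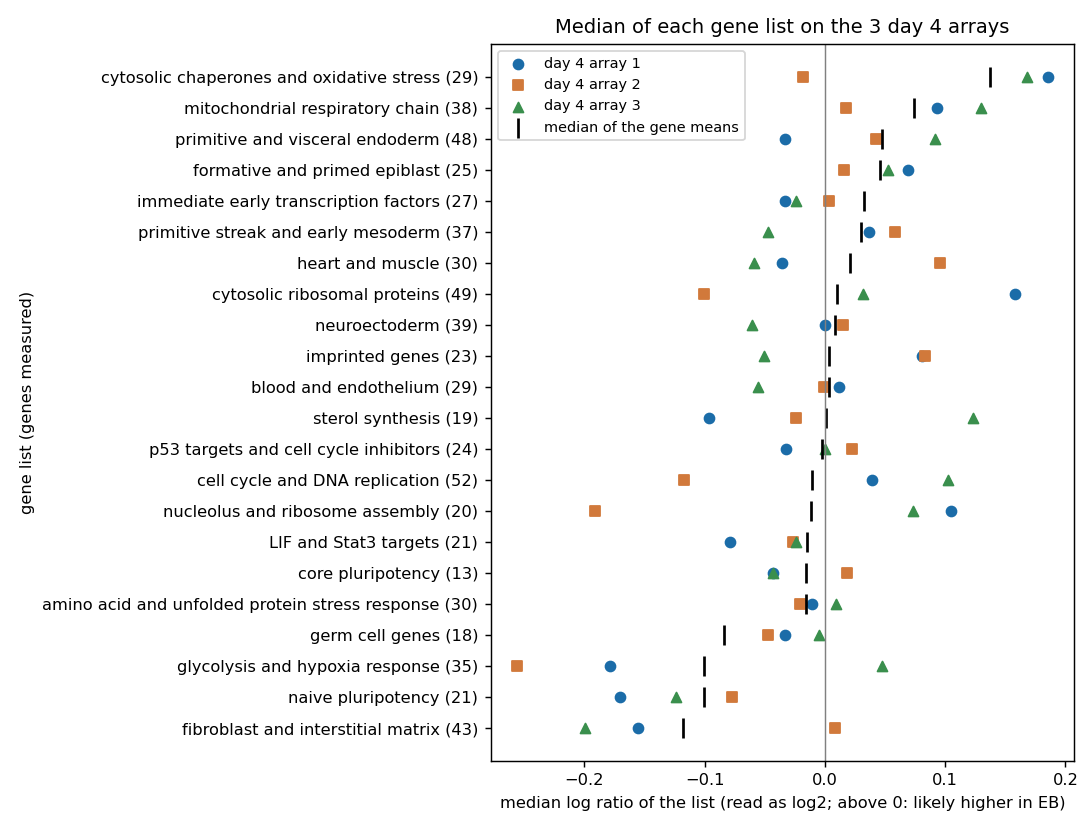
Median log ratio (read as log2; above 0 likely higher in EB cells) of each of 22 gene lists on the 3 day 4 arrays (points) and over the gene means (bar), with the number of genes measured in brackets. The naive pluripotency list is below 0 on all 3 arrays (-0.17, -0.08 and -0.12), while the nucleolar list is at -0.19 on array 2 and above 0 on the others.

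For the remaining lists the counts below are at an unadjusted p under 0.05, which 4.98% of all features passed as higher and 5.14% as lower, and none of the members passed the adjusted test. Of 24 measured p53 targets and cell cycle inhibitors, 0 were higher and 2 lower, Plk2 (-0.42, -1.08 and 0.12) and Ei24 (-0.45, -0.44 and -0.08). Of 30 genes of amino acid and unfolded protein stress, 0 were higher and 3 lower, and Slc7a3, a carrier of cationic amino acids, was at 1.49, -0.30 and 0.78. Among 19 sterol genes, 2 were higher and 2 lower. Fdps, which makes the precursor farnesyl diphosphate, was at 0.14, 0.77 and 0.24, and Nsdhl at -1.15, -0.14 and -0.03, low on array 1 alone. Among 27 immediate early genes, 1 was higher (Myc) and 4 lower, and among 18 germ cell genes 2 were higher and 1 lower, with Sycp3, a protein of meiotic chromosomes, at 0.23, 0.31 and 0.48. Of 23 imprinted genes, 1 was higher and 2 lower. The higher gene was Mest, at 0.48, 0.27 and 0.42, and Igf2r (-0.32, -0.60 and -0.19) and Slc22a18 (-0.35, -0.43 and -0.19) were lower, while H19 was at 0.16, 0.75 and -0.10.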

How the data were processed

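The deposited file is the series matrix's value table. It holds the authors' normalized log ratios of 11520 features on 12 arrays with 2 channels, read here as log2 because the base is not given in the sources used here. Nor are the normalization, the feature filter or the direction. Depth does not apply to arrays, whose number limits the precision. The platform annotation named 10043 features by 1 symbol, 29 by several and 1448 by none. Averaging the features that share a symbol left 10689 rows to test, of which 9212 were genes and 1477 had several symbols or none.

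limma 3.58.1 in R 4.3.3 fitted a mean for each of the 4 days (8 residual degrees of freedom) and tested day 4 against 0 and day 8 minus day 4, with Benjamini-Hochberg adjustment over all features and a threshold of 0.05. If all arrays shared 1 ES RNA, which the labels do not say, the spread of the control is left out. The fit was tested on simulated data. Alternatives were other normalizations, array weights, a robust variance prior, probe handling, a filter on small values, each array left out, and the array split. The split was read from 96 features at 4 places in each stretch of 480 rows.

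The genes named were the 12 with the smallest p each way, the 6 largest means each way, the 6 widest ranges (the first 2 groups with the same sign on all 3 arrays), up to 4 members of each of 22 lists by the size of the mean, and the cell type markers. Some list members and markers that this allows are given as ranges or left out, a choice made after their values were seen. The lists held 776 genes, of which 640 were measured. The genes and lists were chosen with earlier results of these data known. Promoters came from RefSeq (GRCm38.p6).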

Additional observations from a re-analysis of the deposited data

Results flagged for a closer look

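Several of the genes named above had all 3 day 4 arrays on one side of 0 and all 3 arrays of a later day on the other. This was looked for among the named genes only, and the share of all features that do the same was not counted. Many of the named genes were chosen for having the same sign on all 3 day 4 arrays, which fixed that part in advance. The lists below are therefore descriptions of single genes. The difference between days 4 and 21 or 15 was not tested, and that between days 4 and 8 passed for no gene. Of these, above 0 at day 4 and below 0 at day 21 were Dnaja1 (mean 0.43 at day 4, -0.081 at day 21), Tyms (0.64 and -0.21), Rexo2 (0.60 and -0.16), Gsta4 (0.42 and -0.96), Ssbp1 (0.50 and -0.32), Socs2 (0.63 and -0.39) and Sycp3 (0.34 and -1.07). The same held for Fdps (0.38 and -0.45), Nop56 (0.32 and -0.67), Ppan (0.27 and -0.29) and Cox5b (0.41 and -0.25). Cul5 was at 0.91 and -0.48, where the day 4 mean came from array 2. Znrd2 was at 0.56 at day 4 and -0.032 at day 8.

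Of the genes named above, those below 0 at day 4 and above 0 at day 21 were Tagln (-0.65 and 0.73), Vim (-0.69 and 0.89), Bmp4 (-0.26 and 0.34), Igf2r (-0.37 and 0.69), Col1a1 (-0.090 and 1.02) and Col3a1 (-0.13 and 1.29). Slc22a18 was at -0.32 at day 4 and 0.47 at day 15.

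The 96 features without a gene symbol, which enter no gene's value, had a median of -1.54 on array 3 of day 4, where 84 of them were below -1, against 1 each on arrays 1 and 2.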

How the results depend on the processing

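At day 4, 0 features passed in the main setting. The count was also 0 in the fit of the 3 day 4 arrays alone, with the robust prior and with each probe on its own. It was 0 too with named features alone, without the features of smallest values and on the first array set alone. Turning the sign also gave 0 and exchanges every direction by construction. Quantile normalization gave 137, scaling 48, array weights 94 and the array split as a term 87, of which 34 were genes. The cause was not tested. Leaving out an array gave 0 to 2 (Hmgn2 and Rbm3 without array 2 of day 4). For day 8 minus day 4, quantile normalization gave 2 (S100g and Tinagl1), array weights 78, and leaving out an array 0 to 6, the 6 without array 1 of day 8. With the replicate number as a block, 0 features passed in either comparison. Deviations of same-numbered arrays from their day means correlated between -0.153 and 0.332, and those of other arrays between -0.269 and 0.198, so the numbers were not taken to pair the arrays. They do follow the array split in part, since array 1 of every day is in the first set and array 3 of every day in the second.

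Of 116 named genes, 101 kept their direction in every alternative run. Much of this was fixed in advance, so the count is no separate support. The robust prior, the replicate block, the filter on small values and leaving out a later array cannot change the day 4 estimate. Many named genes were also chosen for having the same sign on every day 4 array. For those genes, leaving out a day 4 array or weighting the arrays cannot turn the sign. Over the fits that leave out an array, the day 4 value ran from -0.074 to 0.57 for Pax6, -0.049 to 0.21 for Nanog, -0.16 to 0.27 for Otx2, -0.039 to 0.16 for Gata6, -0.042 to 0.093 for Sox17, -0.13 to 0.69 for Afp, -0.19 to 0.083 for Myl7, -0.40 to 0.032 for Col1a2, -0.13 to 0.23 for Krt18, -1.14 to 0.64 for Dmp1, -1.48 to 0.30 for Abcb1a, -0.037 to 1.51 for Cyp7b1, -1.36 to 0.069 for Ereg and -0.46 to 0.96 for Prl2c2. On the first array set alone, Otx2 was at -0.16, Sox17 at -0.042, Afp at -0.13, Myl7 at 0.083, Col1a2 at 0.032, Dmp1 at 0.64 and Ereg at 0.069. With array weights, Nanog was at -0.028, Gata6 at -0.056, Hba-x at -0.0015 and Prl2c2 at -0.12. With the array split as a term, Hba-x was at -0.049 and Krt18 at -0.0045.

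The median half-width of 0.222 limits what 3 arrays can show. No direction is settled by the labels.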

Other observations

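Features of the same gene differed in a way that the gene averages hide. Across 754 genes with more than 1 feature, log ratios of features of the same gene correlated between 0.0829 and 0.212 on the day 4 arrays. The range was 0.0871 to 0.384 at day 8, 0.268 to 0.439 at day 15 and 0.356 to 0.494 at day 21. The lowest day 8 value, on array 1, was thus as low as those of day 4. How far small differences between EB and ES cells lower this correlation was not tested. These are descriptions across genes of the same arrays.

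Genes beyond 0.3 in the same direction on all 3 day 4 arrays numbered 21 above and 38 below. Below -0.5 on all 3 arrays lay 6 genes, and above 0.5 on all 3 lay 0.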
